A study of Homo sapiens with 8 samples.

Results

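The genes described here are 10 core members of the bone morphogenetic protein (BMP) pathway: the ligand genes BMP2, BMP4, BMP6 and BMP7, the receptor genes BMPR1A, BMPR1B and BMPR2, and the intracellular transducers SMAD1, SMAD5 and SMAD6. They were chosen by name and are 10 of the 45812 gene names in the deposited lists. They were found by searching the names the authors attached to each region, where an unmarked name is a gene the region overlaps and a marked name is the nearest gene to 1 side. That search found 161 of 327994 regions, 116 with an unmarked and 45 with a marked name of a member.

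The DNA came from the human embryonic stem cell line H1. It was freed of RNA, sonicated to 200 to 300 bp and used at 6 to 7 µg per reaction. It was mixed with 20 pmol of a biotinylated RNA oligo in a buffer with 5 mM MgCl2 and 50 mM KCl and kept at 37 °C for 1 h, and what stayed with the RNA was taken up on streptavidin beads, released with RNases and sequenced. The oligos were MEG3 TFR1 and MEG3 TFR2, from the long noncoding RNA MEG3, and GATA6-AS TFR1, from the transcript antisense to GATA6, and the control reactions held no oligo, with 2 libraries in each of the 4 groups. For each of the 3 oligos there is 1 list of regions where the oligo libraries gave the higher signal (captured) and 1 where the no-oligo libraries did (control). All 8 libraries come from naked DNA of 1 cell line, so chromatin and expression were not measured, and nothing here says whether a BMP gene was active. The authors' value for each region is a log2 ratio of oligo over no oligo, here called the log2 ratio, and a fold is 2 to the power of its size. The lists combine the libraries of a group and hold 1 value per region, so depth, the spread between the pair of libraries and any test over libraries could not be had, and every value below is a description. All 3 comparisons share the no-oligo libraries, so their values are set side by side and regions at the same place are not independent observations.

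BMP ligands are secreted growth factors that bring together type I receptors (BMPR1A and BMPR1B) and a type II receptor (BMPR2), all of them serine/threonine kinases. The type II receptor phosphorylates the type I receptor, which phosphorylates SMAD1 and SMAD5; these enter the nucleus with SMAD4, while SMAD6 inhibits the pathway and is itself a target of it. In human embryonic stem cells BMP signals are known to drive differentiation toward mesoderm and extraembryonic fates. An RNA can lie in the major groove of a DNA duplex as an additional strand where 1 DNA strand is a run of purines, and for that reason runs of purines or pyrimidines are marked in the sequences that follow.

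The sequences are the 250 bases before a transcription start, 5′ to 3′ on the gene's strand, from RefSeq on GRCh38.p14, with the longest uninterrupted purine or pyrimidine run in capitals. The BMP4 sequence at 53954488 holds a pair of purine runs of that length, 12 bases, and the first is marked. The opening 3 sequences are shown because a captured region overlapped the window around that start (250 bases before it to 50 after it). SMAD6 is shown because the highest captured ratio near a member's start lay just before it, and BMPR1B because it holds the longest run, and these last 2 were chosen after their values were seen. Their positions are, in order, chr14:53954489-53954738 (minus strand), chr14:53953396-53953645 (minus strand), chr4:145482555-145482804 (plus strand), chr15:66701986-66702235 (plus strand) and chr4:94757705-94757954 (plus strand).
BMP4, start at 53954488: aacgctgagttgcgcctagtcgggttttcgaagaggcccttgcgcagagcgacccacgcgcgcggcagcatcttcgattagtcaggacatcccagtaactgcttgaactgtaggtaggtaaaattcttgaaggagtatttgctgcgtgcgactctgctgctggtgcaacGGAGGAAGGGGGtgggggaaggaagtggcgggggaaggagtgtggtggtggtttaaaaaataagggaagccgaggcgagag
BMP4, start at 53953395: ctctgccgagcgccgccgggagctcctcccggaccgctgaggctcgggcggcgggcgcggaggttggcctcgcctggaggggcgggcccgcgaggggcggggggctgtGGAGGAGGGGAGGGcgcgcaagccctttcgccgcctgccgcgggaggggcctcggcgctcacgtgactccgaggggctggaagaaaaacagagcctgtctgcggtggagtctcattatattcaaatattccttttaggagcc
SMAD1, start at 145482805: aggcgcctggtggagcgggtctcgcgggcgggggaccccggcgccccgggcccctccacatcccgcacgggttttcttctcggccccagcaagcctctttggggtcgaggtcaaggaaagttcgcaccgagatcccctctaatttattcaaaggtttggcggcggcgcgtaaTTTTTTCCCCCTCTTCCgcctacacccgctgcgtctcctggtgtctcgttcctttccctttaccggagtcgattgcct
SMAD6, start at 66702236: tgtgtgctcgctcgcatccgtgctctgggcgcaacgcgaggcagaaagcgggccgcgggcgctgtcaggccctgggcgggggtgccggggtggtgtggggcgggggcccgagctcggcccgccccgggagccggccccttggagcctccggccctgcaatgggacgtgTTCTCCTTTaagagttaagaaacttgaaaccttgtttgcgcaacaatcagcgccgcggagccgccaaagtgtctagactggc
BMPR1B, start at 94757955: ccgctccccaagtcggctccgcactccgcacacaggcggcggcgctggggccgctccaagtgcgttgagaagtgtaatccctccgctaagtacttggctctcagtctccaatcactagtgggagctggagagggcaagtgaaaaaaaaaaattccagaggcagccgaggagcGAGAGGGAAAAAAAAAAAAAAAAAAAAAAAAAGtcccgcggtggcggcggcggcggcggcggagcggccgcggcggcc

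A GATA6-AS TFR1 region covered 212 of the 250 bases shown for the BMP4 start at 53954488, and a MEG3 TFR2 region reached 5 bases into those before the start at 53953395. At SMAD1 the GATA6-AS TFR1 region began 46 bp after the start, and at SMAD6 it ended 286 bp before it. The BMPR1B run is a 33-base purine stretch, mostly A, and 0.803% of the 22156 windows of protein-coding genes hold a run as long. The nearest region to it, captured with MEG3 TFR1, began 796 bp downstream of the start. SMAD5 followed with a 21-base pyrimidine run that ends at its start, CTCCCTCTCCCTCCCTCCCTC, a length reached in 5.43% of windows, and SMAD1 with 17 bases (12.6% of windows). Over the 16 windows of the 8 members with an entry, the median longest run was 11.5 bases, against 11 over all windows. The motif GAGAGA, searched on both strands and so also as TCTCTC, was in 1 of the 16, the BMP4 window at 53954488, against 21.4% of all windows. It is not within the 250 bases printed for that start, so it includes bases of the window after the start. A run or motif in a window is a description of its letters and no evidence of binding.

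By the authors' names, 7 of the 10 genes held a captured region with MEG3 TFR1, where 40.0% of 19974 protein-coding genes did. With MEG3 TFR2 there were 5 (38.4% of protein-coding genes) and with GATA6-AS TFR1 7 (46.1%). Control regions lay in 4 genes with MEG3 TFR1 (17.4%), 4 with MEG3 TFR2 (16.0%) and 5 with GATA6-AS TFR1 (28.9%). When names of flanking genes were counted too, all 10 genes were named in each of the 3 captured lists, where 70.6% of protein-coding genes were with MEG3 TFR1, 68.1% with MEG3 TFR2 and 72.6% with GATA6-AS TFR1. The authors' names did not cover every overlap. Of 138 regions that overlap a member's span in the RefSeq table, 114 carried its unmarked name, and 24 did not, 16 of them captured. Over all protein-coding genes whose symbol the lists use, 73.8% of 177001 such overlaps were named, against 82.6% for the members.

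By coordinates, 8 genes held a captured region with MEG3 TFR1 (60.0% of protein-coding genes), 8 with MEG3 TFR2 (56.8%) and 8 with GATA6-AS TFR1 (67.1%). Control regions then lay in 4 genes with MEG3 TFR1 (20.4%), 5 with MEG3 TFR2 (18.6%) and 7 with GATA6-AS TFR1 (38.3%). These shares are higher than the background, but the members are long: their median length was 89.3 kb, from 7.156 kb (BMP4) to 400.496 kb (BMPR1B), against 24.2 kb for protein-coding genes. Among protein-coding genes of 50 kb or more, 81.8% held a captured region with MEG3 TFR1, 81.4% with MEG3 TFR2 and 83.2% with GATA6-AS TFR1. The 7 members of that length counted 7, 6 and 7 with one in the same order, SMAD1 lacking a MEG3 TFR2 region. Control regions lay in 43.7%, 40.1% and 73.0% of the long genes, and in 4, 5 and 7 of the 7 long members. Read against genes of like length, the captured counts were therefore not set apart.

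**Figure D1:**
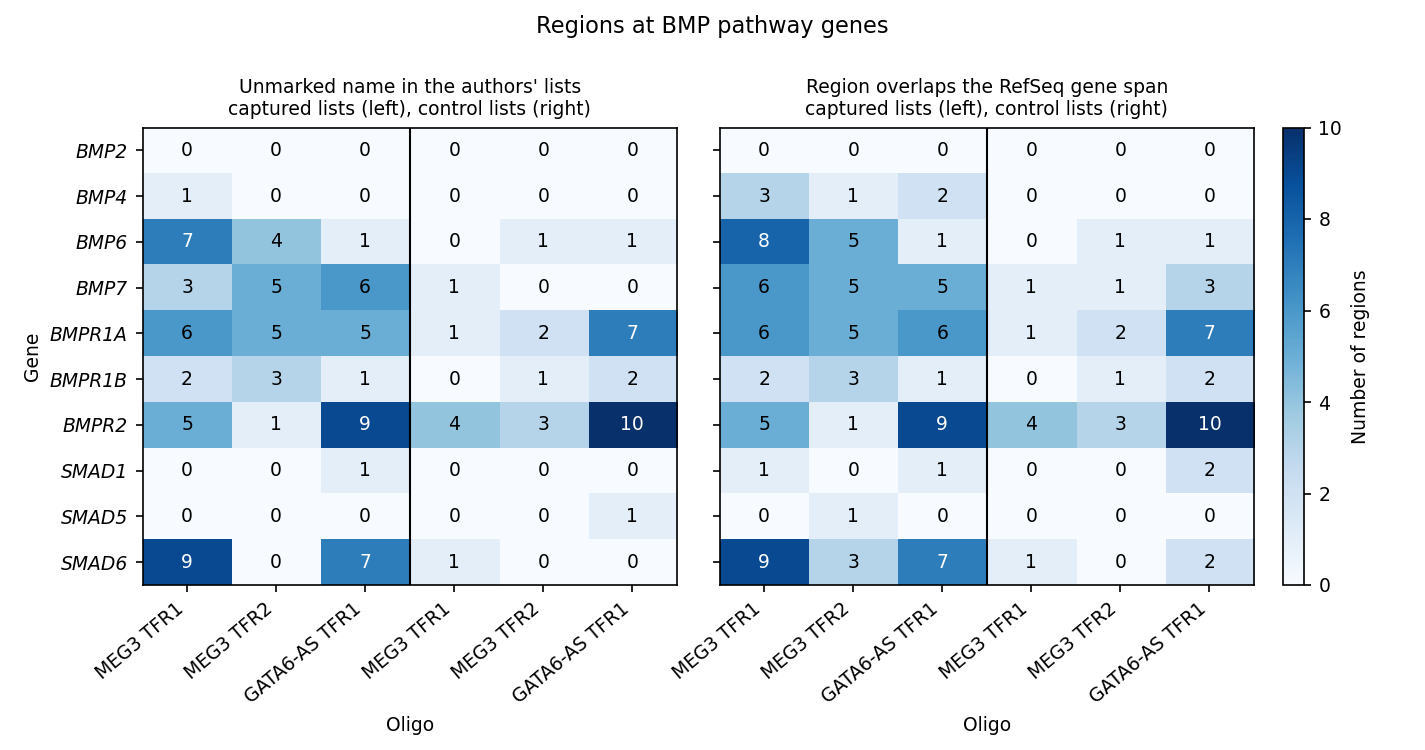
Number of regions inside each gene (rows) for each of the 3 oligos (columns), by the authors' unmarked names (left panel) and by overlap with the RefSeq span (right panel), with captured lists left and control lists right of the line in each panel. BMP2 has 0 in every column, BMPR2 has 10 control regions with GATA6-AS TFR1, and SMAD6 with MEG3 TFR2 goes from 0 by name to 3 by span.

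Per length, the members carried fewer captured and more control regions than protein-coding genes as a whole. The densities and the shares by oligo below are set against all protein-coding genes, not against genes of like length. Captured regions per 100 kb of span came to 3.20 with MEG3 TFR1, 1.92 with MEG3 TFR2 and 2.56 with GATA6-AS TFR1, against 3.89, 3.22 and 5.13 over all protein-coding genes. Control regions came to 0.559, 0.639 and 2.16 per 100 kb, against 0.498, 0.433 and 1.47. BMPR1B, the longest gene, held few regions. Without it the captured values were 4.47, 2.47 and 3.64, so that with MEG3 TFR1 the members then lay above the protein-coding value. The control values without it were 0.823, 0.823 and 2.94. Of the 138 regions in the spans, 42 were control regions (30.4%), against 16.4% over protein-coding genes and 19.6% over those of 50 kb or more. These shares count a site again for each comparison that lists it. As separate sites the members held 31 control and 89 captured, and sites of other genes were not counted. By oligo the control share was 14.9% with MEG3 TFR1 (7 of 47, against 11.4% over protein-coding genes), 25.0% with MEG3 TFR2 (8 of 32, against 11.9%) and 45.8% with GATA6-AS TFR1 (27 of 59, against 22.3%). BMPR2 and BMPR1A together supplied 27 of those 42, and without both genes the share was 19.0% (15 of 79).

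The log2 ratios of the captured regions inside the genes were of the size usual in their lists. Their median was 1.36 with MEG3 TFR1, from 0.84 to 2.46, where the whole list had 1.41. With MEG3 TFR2 it was 1.38, from 0.89 to 2.33, against 1.44. With GATA6-AS TFR1 it was 1.20, from 0.74 to 2.51, against 1.34. Control regions inside the genes had medians of -1.29, -1.36 and -1.49 in the same order, and their lists -1.53, -1.46 and -1.57.

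**Figure D2:**
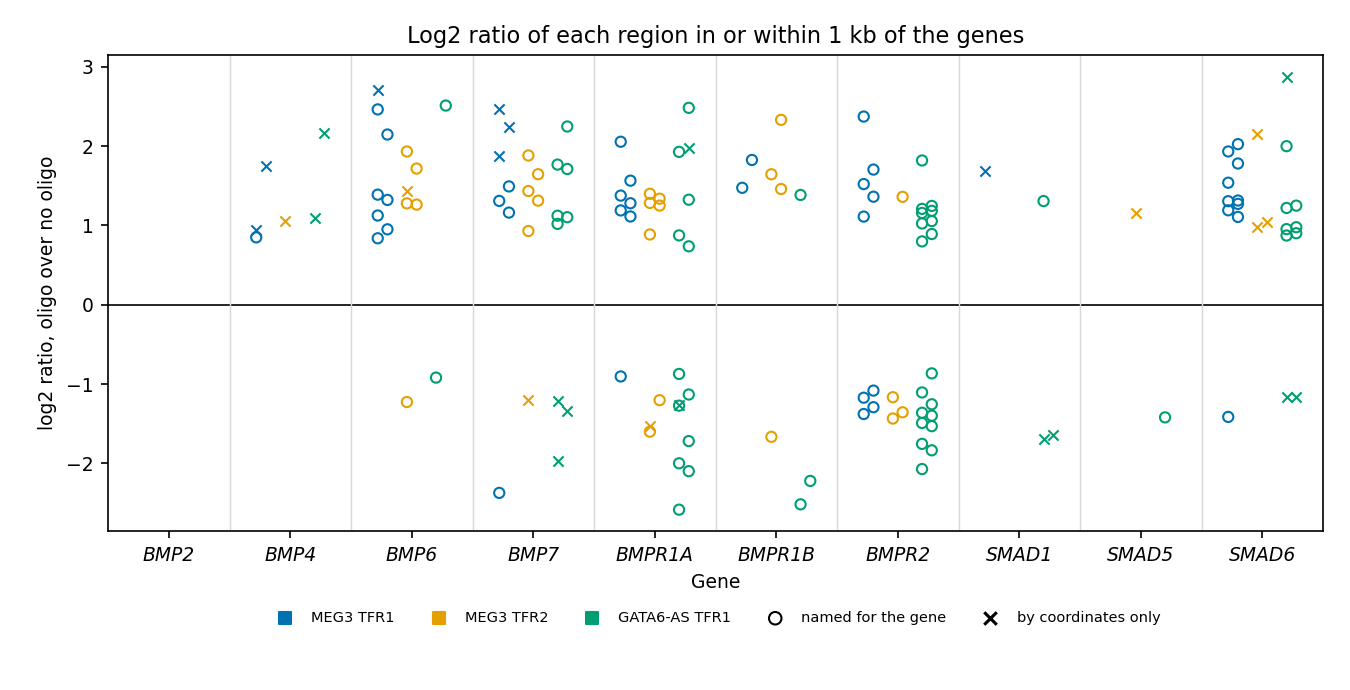
Log2 ratio of oligo over no oligo (vertical axis) for regions of each gene (horizontal axis), coloured by oligo. Circles are regions that carry the gene's unmarked name, wherever they lie. Crosses are those found by coordinates only, in or within 1 kb of the gene. Regions with the gene's marked name are not drawn. BMP2 has no point, captured regions of the other 9 genes lie between 0.74 and 2.87, and control regions between -2.58 and -0.87.

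Among the ligands, BMP2, an inducer of bone formation and of heart development (chromosome 20, 6767686 to 6780246), was the gene with no region inside it in any of the 6 lists. It was named as the flanking gene of 5 captured regions and 1 control region. The nearest was a MEG3 TFR1 region 22255 bp from the gene, with a log2 ratio of 1.38. Under 20 kb in length, BMP2 belonged to a class of 8983 protein-coding genes of which 42.3% held a captured region with MEG3 TFR1, 37.4% with MEG3 TFR2 and 53.7% with GATA6-AS TFR1.

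BMP4, a ligand with roles in mesoderm formation and used to differentiate human embryonic stem cells (chromosome 14, 53949736 to 53956891, minus strand), is shorter still and held 6 captured and 0 control regions. Of protein-coding genes under 20 kb, 4.88% held a control region with MEG3 TFR1, 4.25% with MEG3 TFR2 and 12.3% with GATA6-AS TFR1. The authors' names showed 1 of the 6 captured regions of BMP4, a MEG3 TFR1 region at 53956651 to 53957000 with a log2 ratio of 0.85. It lies upstream of all 3 starts in the table, 1601 bp from the nearest. With GATA6-AS TFR1 the region at 53952351 to 53952650 had 2.16 (4.48-fold), the highest in the gene, and that at 53953951 to 53954700, over the start at 53954488, had 1.09. With MEG3 TFR2 the single region, at 53952751 to 53953400, had 1.05 and overlapped the start at 53953395. MEG3 TFR1 had 2 further regions, 53950801 to 53951050 with 1.75 and 53952651 to 53953200 with 0.95, the last of them overlapping the MEG3 TFR2 region. So each oligo had captured DNA within BMP4, and the regions lay at neighbouring rather than identical places. How many genes of this length hold as many captured regions, or regions of all 3 oligos, is not given here. Outside the gene, 3136 bp from its far end, a region was captured with GATA6-AS TFR1 (1.64, from 53946051 to 53946600) and with MEG3 TFR1 (1.40, from 53946351 to 53946600). On the upstream side, 6310 bp and 6510 bp away, regions that overlap each other were captured with MEG3 TFR2 (1.78) and GATA6-AS TFR1 (1.67).

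BMP6, a ligand best known for its control of the iron hormone hepcidin (chromosome 6, 7726099 to 7881728), was mostly captured by the MEG3 oligos. Of its 14 captured regions, 8 came with MEG3 TFR1, 5 with MEG3 TFR2 and 1 with GATA6-AS TFR1. The single GATA6-AS TFR1 region, at 7728351 to 7728850, was the closest to the start, 2252 bp downstream of it, and had a log2 ratio of 2.51 (5.70-fold). The highest MEG3 TFR1 values were 2.71 at 7736901 to 7737100, a region without the gene's name, and 2.46 at 7782601 to 7783000. The highest with MEG3 TFR2 was 1.93, at 7839301 to 7839500. Its control regions lay at 1 site, 7866051 to 7866600, with MEG3 TFR2 at -1.23 and GATA6-AS TFR1 at -0.92. Outside the gene, 36899 bp and 36949 bp before it, regions that overlap each other were captured with MEG3 TFR2 (1.56) and GATA6-AS TFR1 (1.10).

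BMP7, a ligand needed for kidney and eye development (chromosome 20, 57168753 to 57266641), held captured regions of every oligo: 6 with MEG3 TFR1, 5 with MEG3 TFR2 and 5 with GATA6-AS TFR1. The highest log2 ratios were 2.47 with MEG3 TFR1 at 57189901 to 57190300, 2.25 with GATA6-AS TFR1 at 57184201 to 57184350 and 1.88 with MEG3 TFR2 at 57243651 to 57243950. At and next to that last site the directions differed among the oligos. An overlapping MEG3 TFR1 region, 57243751 to 57244050, was captured with 1.16, while a GATA6-AS TFR1 region at 57244001 to 57244300, which overlaps only the MEG3 TFR1 region, was a control region with -1.22. A nearby site was captured with both MEG3 TFR2 (1.31, 57242001 to 57242250) and GATA6-AS TFR1 (1.10, 57241851 to 57242300). Control regions with MEG3 TFR1 (-2.37, 57205551 to 57205700) and MEG3 TFR2 (-1.20, 57205451 to 57205750) shared 1 site. Outside the gene, 6503 bp and 6553 bp away, control regions of GATA6-AS TFR1 (-1.62) and MEG3 TFR2 (-1.57) overlapped each other. A GATA6-AS TFR1 region given the gene's unmarked name, at 57267101 to 57267400 with 1.12, lay 460 bp beyond the higher-coordinate edge of the span. A MEG3 TFR1 region with 0.83 lay 953 bp beyond the lower-coordinate edge. No start was available for BMP7, so neither region could be placed relative to a start.

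Among the receptors, BMPR1A, the type I receptor that embryos need to form mesoderm (chromosome 10, 86755763 to 86932844), held 17 captured and 10 control regions. MEG3 TFR1 gave 6 captured and 1 control, MEG3 TFR2 5 and 2, and GATA6-AS TFR1 6 and 7. The GATA6-AS TFR1 comparison thus had more control than captured regions here, at 3.95 control regions per 100 kb against 1.47 over protein-coding genes. Its log2 ratios were the most spread inside the gene, from -2.58 at 86765001 to 86765200 to 2.48 at 86801801 to 86802150. The highest with MEG3 TFR1 was 2.06 at 86871151 to 86871350, and with MEG3 TFR2 1.40 at 86859051 to 86859350. Between 86846651 and 86848200 regions of all 3 oligos lay side by side: MEG3 TFR2 with 1.34 and 0.89, MEG3 TFR1 with 1.28 and GATA6-AS TFR1 with 1.32. Another site, near 86866051, was captured with MEG3 TFR2 (1.28) and MEG3 TFR1 (1.11). Before the start the direction was the opposite. Control regions ended 513 bp upstream of it with GATA6-AS TFR1 (-1.26, 86754851 to 86755250) and 563 bp upstream with MEG3 TFR2 (-1.53, 86754901 to 86755200). The first captured region inside the gene, with GATA6-AS TFR1, began 1488 bp downstream of the start and had 1.97. Further control regions overlapped at 86800251 to 86800850 (GATA6-AS TFR1 -0.87, MEG3 TFR2 -1.60) and from 86842251 (MEG3 TFR1 -0.90, MEG3 TFR2 -1.20). The lowest ratio of any region named for a member lay outside BMPR1A, 24013 bp before the gene. It was a GATA6-AS TFR1 control region at 86731551 to 86731750 with -2.95 (7.73-fold), which ranked 707 of the 36330 in its list.

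BMPR1B, the type I receptor linked to cartilage and digit formation (chromosome 4, 94757955 to 95158450), held the fewest captured regions per length of the 9 genes that had any. Its 6 captured regions amounted to 0.499 per 100 kb with MEG3 TFR1, 0.749 with MEG3 TFR2 and 0.250 with GATA6-AS TFR1. The MEG3 TFR1 region near the start shown above, 94758751 to 94759350, had a log2 ratio of 1.47. The highest values were 2.33 with MEG3 TFR2 (94925751 to 94926100), 1.83 with MEG3 TFR1 (94929551 to 94930050) and 1.38 with GATA6-AS TFR1 (94875651 to 94875900). A control region at 94873801 was listed with GATA6-AS TFR1 (-2.52) and MEG3 TFR2 (-1.67). Beyond the far end, overlapping regions were captured with MEG3 TFR2 (1.40) and MEG3 TFR1 (1.50), 1251 bp and 1451 bp from the gene.

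BMPR2, the type II receptor whose mutations cause heritable pulmonary arterial hypertension (chromosome 2, 202376327 to 202567749), was the gene with the most control regions, 17 beside 15 captured. Among 2085 protein-coding genes of 50 kb or more with at least 20 regions in all, 2.73% likewise had more control than captured regions. That share counts regions of all comparisons, so a site can count more than 1 time. By separate sites BMPR2 had more captured (15) than control (11). With GATA6-AS TFR1 it held 9 captured and 10 control regions, with MEG3 TFR1 5 and 4, and with MEG3 TFR2 1 and 3. The 17 control regions lay at 11 separate sites, as several sites were listed in more than 1 comparison. With GATA6-AS TFR1 they came to 5.22 per 100 kb, a density that 3.74% of protein-coding genes of 50 kb or more reached. This share was taken only for BMPR2, the member of that length with the highest value, so the gene was not chosen beforehand. The site at 202467651 was a control region in every comparison, with -2.07 for GATA6-AS TFR1, -1.17 for MEG3 TFR2 and -1.08 for MEG3 TFR1. Near 202396751 (GATA6-AS TFR1 -0.87, MEG3 TFR1 -1.17), 202422851 (GATA6-AS TFR1 -1.11, MEG3 TFR2 -1.36), 202479601 (GATA6-AS TFR1 -1.53, MEG3 TFR2 -1.44) and 202556151 (GATA6-AS TFR1 -1.40, MEG3 TFR1 -1.38) the site was listed with 2 of the oligos. The captured regions lay at 15 separate sites, with none overlapping between oligos. How often captured or control sites are common to several oligos over all genes is not given here. Neither count is therefore read as particular to BMPR2. At the start, GATA6-AS TFR1 captured 202376651 to 202377200 with 1.21, 324 bp downstream. Its highest value, 1.82, was at 202449151 to 202449300, close before a control region of the same oligo at 202449651 to 202449800 (-1.75). The highest with MEG3 TFR1 was 2.37 at 202502351 to 202502500, and the single MEG3 TFR2 region had 1.36 at 202549651 to 202550050.

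**Figure D3:**
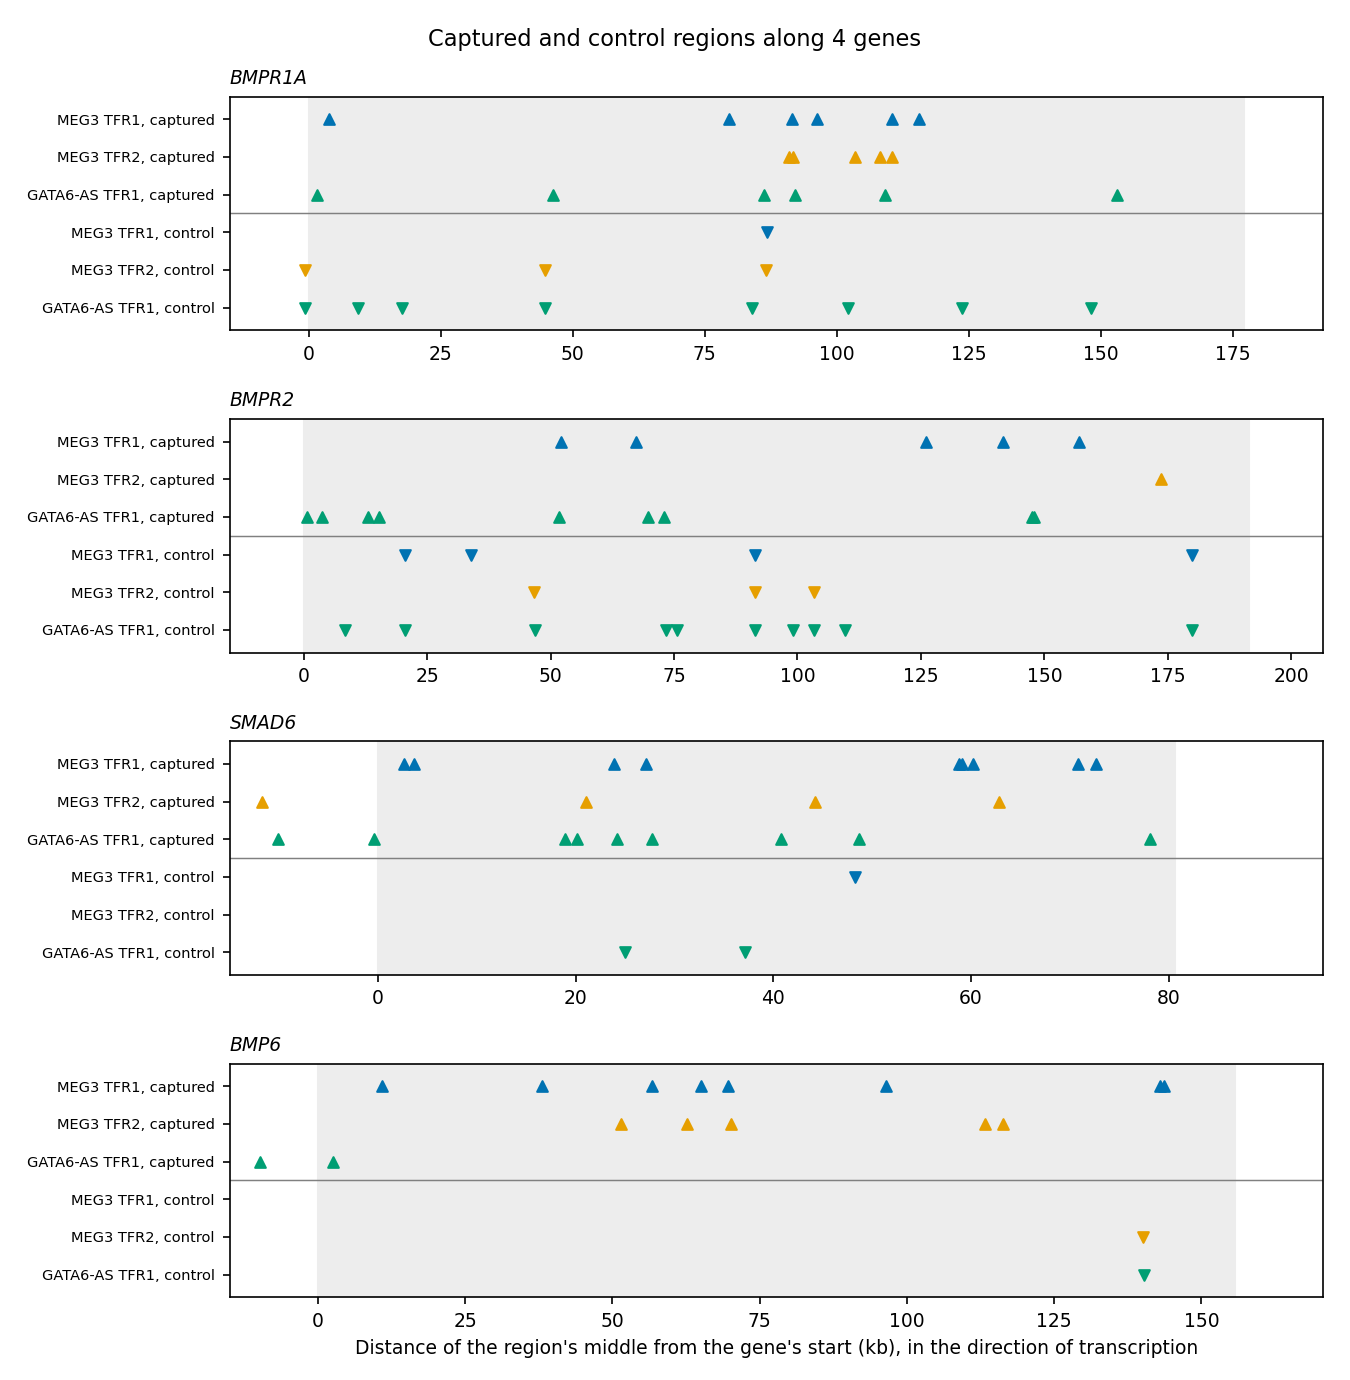
Position of each region's middle in kb from the gene's start in the direction of transcription (horizontal axis) for BMPR1A, BMPR2, SMAD6 and BMP6, with upward triangles for captured and downward triangles for control regions, 1 line per oligo and the gene span in grey. BMPR2 shows 17 control triangles spread along the gene. SMAD6 shows 19 captured and 3 control triangles inside the span, with further captured triangles before its start. BMP6 shows 1 captured GATA6-AS TFR1 triangle inside the gene, near its start.

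Among the receptor-regulated SMADs, which carry the signal to the nucleus, SMAD1 (chromosome 4, 145480770 to 145559176) held 2 captured and 2 control regions. GATA6-AS TFR1 captured 145482851 to 145483150 with a log2 ratio of 1.31, just after the last of the 5 starts in the table. MEG3 TFR1 captured 145494951 to 145495200 with 1.69. Both control regions came with GATA6-AS TFR1, with -1.64 and -1.69. The highest ratio of any region named for a member lay outside SMAD1, 25570 bp before the gene. It was a MEG3 TFR1 region at 145454901 to 145455200 with 4.22 (18.6-fold), which ranked 76 of the 89739 regions captured with that oligo. MEG3 TFR2 captured a region 7120 bp from the gene with 0.95, and GATA6-AS TFR1 had a control region 6170 bp from it with -1.31.

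SMAD5 (chromosome 5, 136132845 to 136182733) held 1 region, captured with MEG3 TFR2 at 136133551 to 136133850 with 1.15. It lay 706 bp downstream of the start that follows the 21-base pyrimidine run, and the authors named it for the antisense gene SMAD5-AS1. The single region with SMAD5 as an unmarked name was a GATA6-AS TFR1 control region (-1.42) that lies 4168 bp beyond the span in the RefSeq table. The flanking regions named for SMAD5 were captured with MEG3 TFR2 (1.22, 8295 bp away), MEG3 TFR1 (1.19, 18195 bp) and GATA6-AS TFR1 (1.30, 53045 bp).

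SMAD6, the inhibitory SMAD (chromosome 15, 66702236 to 66782849), held 19 captured regions by span, the most of the set, with 3 control regions. By name it held 16, as many as BMPR1A. MEG3 TFR1 gave 9, GATA6-AS TFR1 7 and MEG3 TFR2 3, none of these last with the gene's name. Per 100 kb, MEG3 TFR1 had 11.2 regions and GATA6-AS TFR1 8.68, so the gene lay above the protein-coding values of 3.89 and 5.13, while 3.72 with MEG3 TFR2 was close to 3.22. Of protein-coding genes of 50 kb or more, 7.54% had as many MEG3 TFR1 regions per length. SMAD6 had the highest such density of the members of that length, and the share was taken for it alone. It is therefore not the share of a gene chosen beforehand. The highest log2 ratios inside the gene were 2.15 with MEG3 TFR2 (66723151 to 66723350), 2.03 with MEG3 TFR1 (66761301 to 66761450) and 2.00 with GATA6-AS TFR1 (66780201 to 66780550). A MEG3 TFR1 region 1500 bp wide, 66725351 to 66726850, had 1.11 and contained a GATA6-AS TFR1 region with 0.98. Upstream of the start printed above, GATA6-AS TFR1 captured 66701751 to 66701950 with 2.87 (7.33-fold), rank 991 of 104786 in its list. The authors gave that region no gene name. The control regions were 2 with GATA6-AS TFR1 (-1.16 and -1.17) and 1 with MEG3 TFR1 (-1.42).

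Around transcription starts the 8 genes with an entry gave small counts. A captured region lay within 1 kb of a start at 2 genes with MEG3 TFR1 (BMP4 and BMPR1B), where 22.1% of 15813 protein-coding genes had one. With MEG3 TFR2 there were 2 (BMP4 and SMAD5; 14.2% of genes), and with GATA6-AS TFR1 4 (BMP4, BMPR2, SMAD1 and SMAD6; 41.0%). BMP4, for which 3 starts were counted, was the 1 gene of the 8 with a captured region there in every comparison. The share of protein-coding genes with one in every comparison is not given here. Control regions lay there at 0 genes with MEG3 TFR1 (1.21% of genes), and at BMPR1A alone with MEG3 TFR2 (1.25%) and with GATA6-AS TFR1 (3.30%).

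**Figure D4:**
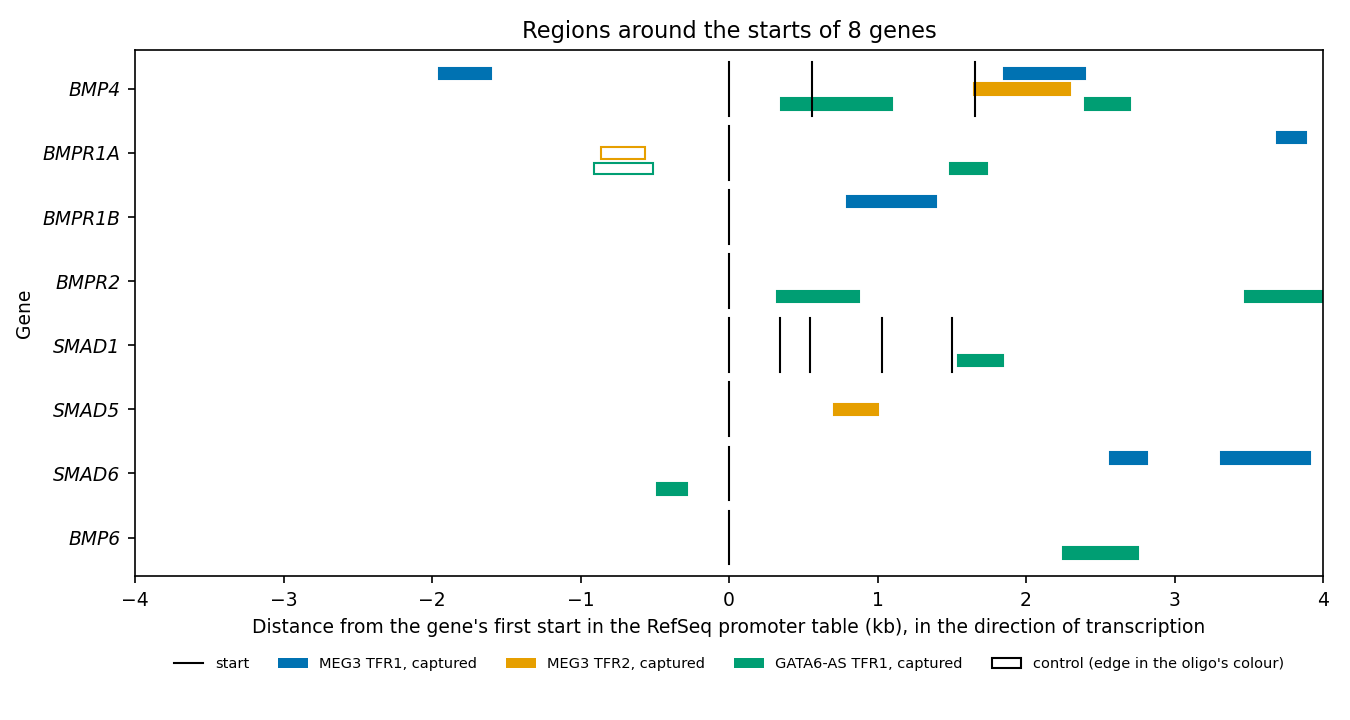
Regions around the starts of the 8 genes with an entry in the RefSeq promoter table, as distance in kb from the first start in the direction of transcription (horizontal axis), with filled bars for captured and open bars for control regions in the oligo's colour and vertical ticks for starts. BMP4 has regions of all 3 oligos near its 3 starts, BMPR1A 2 open bars upstream, and SMAD6 a GATA6-AS TFR1 bar that ends 286 bp before its start.

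The wider pathway was taken as 44 further genes. By name, 16 held a captured region with MEG3 TFR1, 17 with MEG3 TFR2 and 20 with GATA6-AS TFR1, and 6, 6 and 16 held a control region. Over protein-coding genes the shares were 40.0%, 38.4% and 46.1% for captured and 17.4%, 16.0% and 28.9% for control regions. The captured shares of the wider list were near these. Its control shares were lower with the MEG3 oligos and higher with GATA6-AS TFR1. Among 10 other ligands 3, 2 and 4 held a captured region, with the highest log2 ratio at BMP8A (2.45 with GATA6-AS TFR1) and GDF6 (2.19 with MEG3 TFR1). Of 8 receptors and co-receptors 4, 6 and 5 did, led by the co-receptor gene RGMA (2.40 with MEG3 TFR2) and the endothelial type I receptor gene ACVRL1 (2.00 with MEG3 TFR1). Of 6 SMADs and regulators 3 did with each oligo, led by SMURF2 (2.72 with MEG3 TFR2) and SMURF1 (2.22 with MEG3 TFR2), which encode ubiquitin ligases for SMADs and receptors. Of 12 extracellular antagonists and modulators 6, 5 and 5 did, led by NBL1 (2.35) and TWSG1 (2.35), both with GATA6-AS TFR1. Of 8 target genes 0, 1 and 3 did, led by DLX5 (2.39) and ID3 (1.52), both with GATA6-AS TFR1. ID3 encodes an inhibitor of DNA binding that BMP signals induce. These role counts are by name. By span, 27, 21 and 27 of the 44 genes held one (60.0%, 56.8% and 67.1% of protein-coding genes). By role that was 7, 4 and 4 ligands, 5, 7 and 8 receptors and 4, 3 and 3 SMADs and regulators. It was 8, 6 and 7 antagonists and modulators and 3, 1 and 5 targets. The DLX5 region with MEG3 TFR2 and the HAMP region captured with GATA6-AS TFR1 lay outside those genes' spans.

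Likeness was taken as holding an unmarked name in exactly the same of the 6 lists, so it compares the names the authors attached. BMPR1A and BMPR2, in all 6, shared that pattern with the type I receptor gene ACVR1 and with BMPER, which encodes a secreted BMP modulator. These matches also held by RefSeq span, by which BMP7 was in all 6 lists too. BMP2, in none, shared it with 17 genes. By span 10 of those 17 held a region, among them the antagonist gene CHRD, and 7 held none, among them the antagonist gene NOG and the targets ID2 and ID4. By name BMP7 had the lists of ACVRL1, BMP4 those of SOSTDC1, SMAD1 those of ID3, and SMAD5 those of SMAD4 and SMAD9, but none of these matches held by span. No gene of the wider list had the lists of BMP6, BMPR1B or SMAD6 by name.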

How the data were processed

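Captured DNA was sequenced as 2 libraries for each of 3 RNA oligos and for reactions with none. Reads were handled with BWA 0.7.15-r1140 and FastQC on hg38, per the submitters' processing notes. How regions were called, scaled and pooled over libraries is not given in the sources used here. All 6 deposited lists hold 1 log2 ratio per region from the authors, a log base read from the values, and were used as deposited. What the ratio counts and its error are unknown. Input libraries were not analysed here.

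Names marked (+) or (-) were taken as genes at higher or lower coordinates, which held for 54378 of 54378 marked names tested, and unmarked names as overlapped genes, whose span the region overlapped for 91.4%. Spans, starts and promoter sequences came from RefSeq tables of GRCh38.p14, the assembly of hg38, with an overlap of at least 1 bp; 8 members have a promoter entry. Coordinates are printed from 1. Calculations used Python 3.11.15 with numpy 2.4.6 and pandas 2.3.3 and were tested on simulated data. The members and the wider list were chosen with earlier results of these data known.

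For each member the text names the highest region inside it for each oligo, regions within 1 kb of a start and overlaps between lists, and for each role of the wider list the 2 genes with the highest ratio by name; some regions outside this rule are named after their values were seen. Planned counts of regions shared between oligos are not given, since the comparisons share the no-oligo libraries. No test was run. Alternatives were the 50% of each list with the largest ratio in size, RefSeq spans in place of names, regions within 200 bp joined, and, chosen after seeing the data, densities without BMPR1B and control shares without BMPR1A and BMPR2.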

Additional observations from a re-analysis of the deposited data

How the results depend on the processing

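Keeping the 50% of each list with the largest log2 ratio in size, which lowers counts and raises medians by construction, left 14, 7 and 9 captured regions inside the members (from 33, 18 and 30 by name; here and below in the order MEG3 TFR1, MEG3 TFR2, GATA6-AS TFR1). It left 7, 4 and 6 flanking captured regions (from 16, 11 and 12) and medians of 1.80, 1.72 and 1.93 (from 1.36, 1.38 and 1.20). Control regions fell to 1, 2 and 9 (from 7, 7 and 21), in 1, 2 and 3 members (from 4, 4 and 5). With MEG3 TFR2, members with a captured region fell to 3 (from 5) and genes of the wider list to 8 (from 17). RefSeq spans in place of names raised the members with a MEG3 TFR2 region to 8 and the wider list with MEG3 TFR1 to 27 (from 16), and gave medians of 1.43, 1.35 and 1.21. Joining regions within 200 bp kept every count it was applied to within 1.5 times, as did densities without BMPR1B, an alternative chosen after seeing the data. The control share of 30.4% became 23.6% without BMPR2 and 19.0% without BMPR1A as well, also chosen after seeing the data.

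No paired analysis was possible because the lists hold no value per library. For the same reason no fit without a library was made, and neither depth nor the error of a ratio is known. A count over 10 genes moves by large steps.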
